A study of Mus musculus with 15 samples.

Results

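The comparison described here set 10 libraries of mouse neural progenitors that switched on a ventral transcription factor against 5 libraries of the parental line that switched on Cre recombinase in its place. Members were chosen by the label alone: the 10 libraries not named for the parental line form the factor group, the 5 named for it form the control, and together they are all of the 15 libraries analysed. The progenitors were derived from 129/Ola embryonic stem cells, freed of feeder cells, held in suspension for 2 days and then treated with 500 nM retinoic acid. All lines, the control included, received 1 ug/ml doxycycline for 12 hours, which activates a tetracycline-responsive (TRE) transgene. That transgene was TRE_Nkx2.2, TRE_Nkx6.1, TRE_Olig2, TRE_Nkx6.1-P2A-Nkx2.2 or TRE_Nkx6.1-P2A-Olig2 in the 5 factor lines, with 2 libraries each, and TRE_Cre in the parental line mA2.lox.Cre, with 5 libraries. P2A is a peptide at which the ribosome releases the first protein before it makes the second, so 1 transcript gives both factors. Each comparison with the control sets a line that gained a factor and lost Cre against one that kept Cre, so the exchange of Cre and the action of a factor cannot be told apart. The labels do not say whether a line is 1 clone, or whether replicates were separate cultures, so p-values reflect variation between these 15 libraries, part or all of which may be technical.

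In the ventral neural tube, Sonic hedgehog (Shh) from the notochord and floor plate sets up stripes of progenitors, each with its own set of transcription factors. Nkx2.2, Nkx6.1 and Olig2 mark ventral stripes and act mainly as repressors. Nkx2.2 and Nkx6.1 are homeodomain proteins that recruit co-repressors of the Groucho/Tle family, and Olig2 is a basic helix-loop-helix repressor. Their known targets include factors of neighbouring stripes, such as Pax6, Irx3, Dbx1 and Dbx2. The stated aim of the study was to find the genes that these factors repress.

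Library totals ran from 12282038 to 19426544 counts, and the lowest control total, 18015449, lay above the highest factor total, 17751854. Levels are therefore given as CPM (a share of the library total) after TMM scaling, which corrects for totals and composition. The label numbers fall into 2 series: numbers from 210 to 215 cover the single-factor lines and controls 1 to 3, and numbers 232 and 234 cover the 2-factor lines and controls 4 and 5. The factors checked the labels. Nkx2-2 was higher than the control by 9.47 and 9.10 on the log2 scale in the lines with that transgene, Nkx6-1 by 4.62, 4.68 and 4.68, and Olig2 by 4.59 and 4.97, with transgene and native reads not separated. Y-linked Ddx3y and Eif2s3y reached 0 CPM in the Olig2 line, and genes of chromosome 18 had a median log2 fold change of 0.52 there against medians between -0.043 and -0.024 in the other 4 lines.

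More genes were lower than higher in the factor lines. With the 5 lines weighted equally, 294 genes fell and 129 rose among 13982 tested, which is 2.10% and 0.923% of the tested genes (edgeR quasi-likelihood test, Benjamini-Hochberg adjusted p under 0.05). Of the 423 called genes, 69.5% were lower, and 2-fold changes numbered 78 lower against 16 higher. Single libraries weighed on these counts: without control 4 there were 152 lower and 40 higher genes, without control 2 there were 174 and 45, and the higher genes numbered 65 to 81 without control 3, Nkx2.2 library 2, Nkx6.1 library 1, Olig2 library 2, Nkx6.1-P2A-Olig2 library 2 or either library of Nkx6.1-P2A-Nkx2.2. A mean of 5 lines can be carried by a few of them, since 3 lines carry Nkx6.1. All 5 line estimates had the sign of the mean for 216 of the lower and 114 of the higher genes.

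A stricter set was formed of called genes whose 5 line estimates shared a sign and whose 10 factor libraries all lay on one side of the 5 controls. It held 37 lower genes (0.265% of those tested) and 28 higher genes (0.200%), and these 65 are called the common genes. Without the test, the 10 factor libraries lay entirely below the controls for 43 genes (0.308%) and above them for 33 (0.236%). The median log2 fold change was -0.97 over the common lower genes and 0.44 over the common higher genes, beside -0.0051 over all tested genes. Among the common genes, every line reached a 2-fold reduction for 5, Prdm8, Has2, Irx5, Irx3 and Pax6. None of the 28 common higher genes reached a 2-fold increase in every line. Prdm8 met the rule in 8 of the 15 fits that left out 1 library, and Has2, Irx5, Irx3 and Pax6 met it in all 15. Leaving out control 5 gave 127 lower and 65 higher common genes, leaving out Olig2 library 1 gave 63 lower, and the higher set shrank to 14 without control 2 or control 4 and to 17 without Nkx6.1-P2A-Olig2 library 2. With a bound of 0.5 on the log2 scale in every line added to the rule, 19 lower and 4 higher common genes remained.

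**Figure D1:**
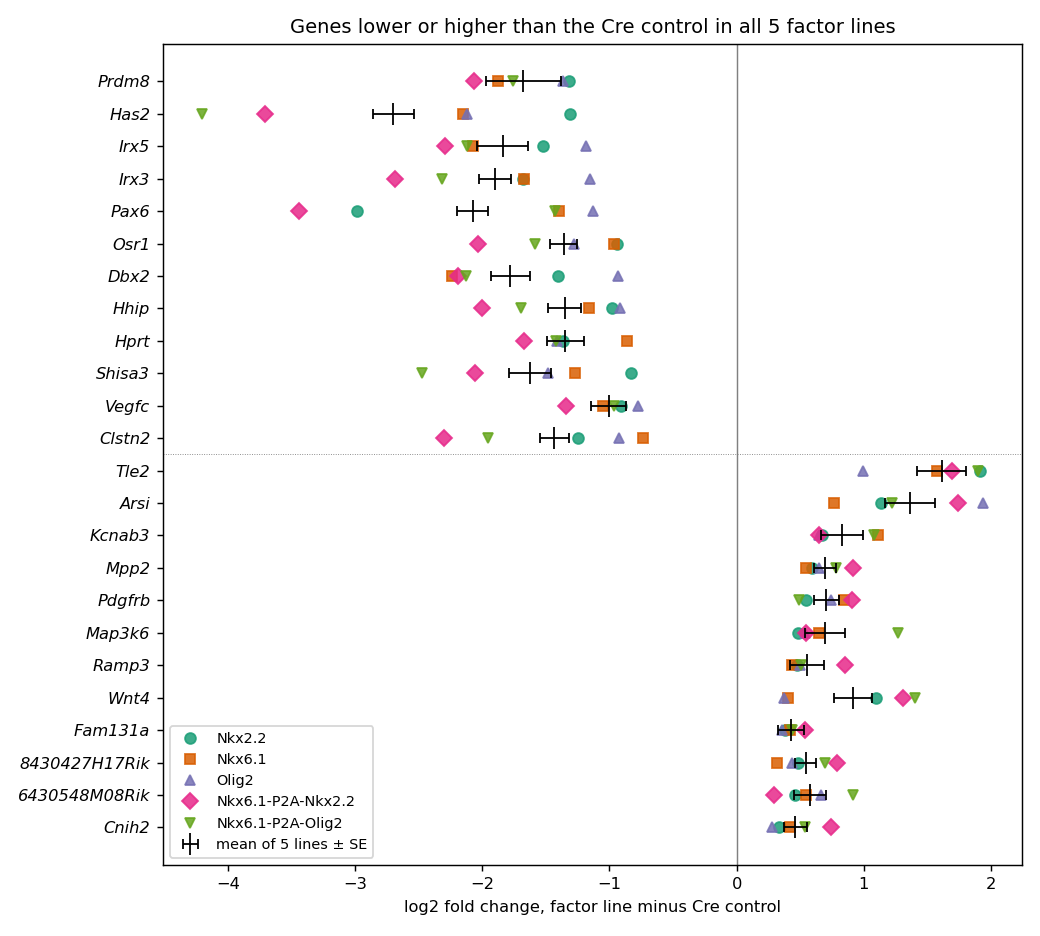
Log2 fold change of each factor line against the Cre control (x axis, 1 marker shape per line) for the 12 lower and 12 higher common genes with the largest change in their weakest line (y axis); black ticks are the mean of 5 lines with its standard error. Prdm8, Has2, Irx5, Irx3 and Pax6 lie beyond -1 in all 5 lines, while the means of the higher genes lie below 1 apart from those of Tle2 and Arsi.

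Of the 5 common genes reduced 2-fold in every line, all but Has2 encode transcriptional regulators. Pax6, a paired homeodomain factor of intermediate and dorsal progenitors, had 96.6, 91.9, 127, 106 and 77.8 CPM in controls 1 to 5. Its factor libraries ran from 7.88 through a median of 32.7 to 46.8 CPM. The highest factor library was thus well below the lowest control, and the lowest values belonged to both lines with Nkx2.2. The mean log2 fold change of Pax6 was -2.08 ± 0.12 (SE), a 4.22-fold reduction (edgeR adjusted p = 1.78e-06).

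Irx3, an Iroquois homeodomain factor that in the chick neural tube marks progenitors dorsal to the motor neuron stripe, had 50.8, 54.3, 75.3, 66.5 and 44.4 CPM in the controls. Its factor libraries ran from 8.95 through 15.3 to 28.1 CPM, without overlap, and it fell by 1.90 ± 0.12 on the log2 scale (edgeR adjusted p = 3.34e-06). Its chromosomal neighbour Irx5 had 10.8, 13.2, 17.4, 17.2 and 10.3 CPM in the controls and between 2.57 and 7.69 CPM in the factor libraries. Irx5 fell by 1.84 ± 0.20 (edgeR adjusted p = 0.000224). For both Iroquois genes the Olig2 line showed the smallest of the 5 reductions, with log2 fold changes of -1.15 for Irx3 and -1.18 for Irx5. A difference among the 5 lines passed the test for Irx3 (edgeR adjusted p = 0.0162) and not for Irx5 (adjusted p = 0.286).

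Prdm8, a PR-domain repressor that partners Bhlhe22 in developing neurons, fell by 1.68 ± 0.29 (edgeR adjusted p = 0.00677). Its controls were uneven: 2.77, 3.29 and 3.95 CPM in series 21, and 5.80 and 9.84 CPM in series 23. The highest factor library, at 2.74 CPM, lay just under the lowest control, so the separation of the groups for Prdm8 was narrow. Within series 21 alone its log2 fold change of -0.90 did not pass the test (adjusted p = 0.253), while within series 23 it was -2.52 (edgeR adjusted p = 0.00156). Dbx2, a homeodomain factor of the stripes dorsal to Nkx6.1, was less variable in the controls, with 3.60, 3.35, 3.74, 4.11 and 3.34 CPM. Its factor libraries ran from 0.567 through 0.974 to 2.10 CPM, and it fell by 1.78 ± 0.16 (edgeR adjusted p = 5.45e-05).

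The 250 bases upstream of a RefSeq start are shown for Prdm8, Irx3 and Pax6, because each was reduced 2-fold in every line. They are RefSeq promoters of GRCm38.p6, read 5′ to 3′ along the gene, and capitals mark AAGTG or its reverse complement CACTT, the core letters bound by Nkx2.2. The Prdm8 stretch lies on the plus strand at chr5:98180619-98180868 and the Irx3 stretch on the minus strand at chr8:91801655-91801904. The downstream of 2 listed Pax6 promoters lies on the plus strand at chr2:105682213-105682462. Each stretch lies inside the GENCODE span of its gene, downstream of the GENCODE gene start. These spans are chr5:98167198-98188991 for Prdm8, chr8:91798525-91802067 for Irx3 and chr2:105668900-105697364 for Pax6.
Prdm8: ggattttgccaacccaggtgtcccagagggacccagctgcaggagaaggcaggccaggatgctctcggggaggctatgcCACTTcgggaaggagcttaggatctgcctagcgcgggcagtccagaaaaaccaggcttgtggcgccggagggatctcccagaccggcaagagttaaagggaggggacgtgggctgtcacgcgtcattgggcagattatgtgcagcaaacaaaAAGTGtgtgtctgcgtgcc
Irx3: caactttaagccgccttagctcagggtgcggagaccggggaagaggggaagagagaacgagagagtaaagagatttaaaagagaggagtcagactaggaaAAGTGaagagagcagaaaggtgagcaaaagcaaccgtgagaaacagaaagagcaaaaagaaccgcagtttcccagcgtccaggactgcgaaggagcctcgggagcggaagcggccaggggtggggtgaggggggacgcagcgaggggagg
Pax6: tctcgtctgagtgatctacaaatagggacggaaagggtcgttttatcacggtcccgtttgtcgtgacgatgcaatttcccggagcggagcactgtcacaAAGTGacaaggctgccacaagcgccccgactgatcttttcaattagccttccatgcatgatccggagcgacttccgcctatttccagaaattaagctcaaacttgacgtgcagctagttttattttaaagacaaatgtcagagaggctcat
Prdm8 held the core at positions -171 and -19 from the start, Irx3 at -150 and this Pax6 promoter at -151, while the upstream Pax6 promoter held none of the letters searched. Matches to so short a core are frequent: on either strand, AAGTG stood in 37.0% of the 27 common lower genes with a promoter entry, in 54.5% of the 22 common higher genes and in 41.2% of 10311 tested genes. TAATTA, bound by Nkx6.1 and other homeodomain factors, stood in 7.41% of the lower and 0.0% of the higher genes beside 2.98% of all. CATATG, an E-box (a core bound by basic helix-loop-helix factors), stood in 0.0% of both sets beside 1.81%, and CAGATG, another E-box, in 14.8% and 9.09% beside 11.7%. TTAAGTG, which contains AAGTG, was in 0.0% of the lower and 4.55% of the higher genes beside 2.03% of all tested genes. These shares describe letters in a window and show no binding.

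On a list of 11 factors of the intermediate and dorsal-boundary stripes, 11 of 11 fell in the mean of 5 lines. Of all tested genes 2.10% were lower. The list was chosen with earlier results of these data known, so the count is no test of this class of genes. Its median log2 fold change was -1.78, and 4 members, Pax6, Irx3, Irx5 and Dbx2, belonged to the common genes. The other members fell on average but not in every library. Dbx1, the homeodomain factor of the stripe at the dorsoventral midline, fell by 3.66 ± 0.41 (edgeR adjusted p = 0.000300), with line values from -6.48 with Nkx6.1-P2A-Nkx2.2 to -0.68 with Olig2. Bhlhe22 fell by 1.51 ± 0.18 (edgeR adjusted p = 0.000433), although the Nkx2.2 line had a value of 0.52 above the control. Irx1 and Irx2 had the smallest reductions of the list, with log2 fold changes of -0.60 and -0.56. All 11 were below zero in each of the 34 alternative fits that tested them, and Irx1 and Irx2 lost their call in 9 and 10 of these.

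Dorsal factors fell less uniformly. Of 17 tested dorsal progenitor factors and signals, 8 fell and 1 rose, beside 2.10% lower and 0.923% higher of all tested genes. None of the 17 was common to all libraries. Prdm13, a dorsal PR-domain repressor, had 3.93 ± 2.43 CPM (SD, n = 5) in the controls and fell by 3.18 ± 0.44 (edgeR adjusted p = 0.00150). Olig3, the dorsal relative of Olig2, had 2.32 ± 0.90 CPM in the controls and fell by 2.45 ± 0.32 (edgeR adjusted p = 0.000960). Both were lower in all 5 lines, between -4.72 and -1.64 for Prdm13 and between -3.98 and -1.28 for Olig3, but their controls were uneven and the lowest overlapped the factor libraries. Bmp7, a dorsal growth factor also made elsewhere, rose by 0.63 ± 0.072 (edgeR adjusted p = 0.000352), with 0.015 with Olig2 and 1.34 with Nkx6.1-P2A-Nkx2.2. Neurog2, a proneural factor, fell on average with lines of opposite sign, from -6.57 to 2.05.

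**Figure D2:**
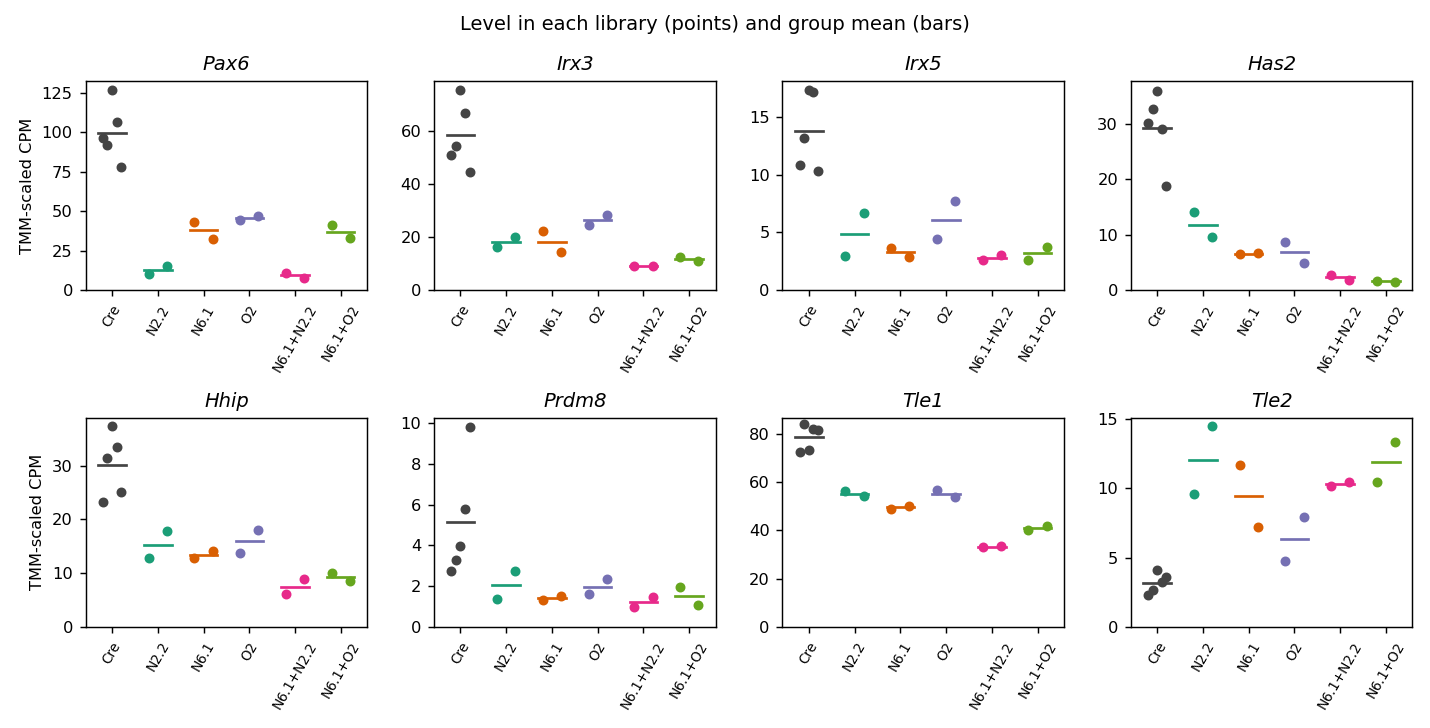
TMM-scaled CPM (y axis, from 0) in each library (points) with group means (bars) for 8 common genes; the x axis gives the Cre control and the Nkx2.2 (N2.2), Nkx6.1 (N6.1), Olig2 (O2), Nkx6.1-P2A-Nkx2.2 (N6.1+N2.2) and Nkx6.1-P2A-Olig2 (N6.1+O2) lines. The 10 factor libraries lie below all 5 controls for 7 genes, narrowly for Prdm8, and above them for Tle2.

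Genes for Hedgehog reception and signalling were among those reduced. Hhip encodes a membrane protein that binds and sequesters Hedgehog ligands, and it had 23.3, 31.5, 37.4, 33.4 and 25.1 CPM in the controls. Its factor libraries ran from 6.09 through 12.8 to 18.1 CPM, all below the controls, and it fell by 1.35 ± 0.13 (edgeR adjusted p = 0.000107). Gas1, a co-receptor for Shh, had 128, 121, 125, 141 and 89.4 CPM in the controls and from 26.2 to 84.4 CPM in the factor libraries. It fell by 1.13 ± 0.13 (edgeR adjusted p = 0.000457), and its groups were separated by a narrow gap. Of 13 Shh pathway genes 4 fell and none rose, beside 2.10% lower and 0.923% higher of all tested genes, and the other 2 were the transcription factor Gli2 and the co-receptor Cdon. Cdon lost its call in 17 of the 34 alternative fits. Gli2 fell by 1.29 ± 0.17 on average (edgeR adjusted p = 0.000866), but the lines ran from -2.57 and -2.33 with Nkx2.2 present to -0.28 with Nkx6.1 alone. The receptor gene Ptch1, itself raised by Hedgehog signalling, had a log2 fold change of -0.10 ± 0.13 (adjusted p = 0.808), and Gli1 of -0.42 ± 0.18 (adjusted p = 0.293). Of 5 tested floor plate genes 0 passed in either direction with edgeR, limma or DESeq2, and 0 had an unadjusted p under 0.05.

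Has2, which makes the matrix polysaccharide hyaluronan, showed the strongest shared reduction by its mean. The controls had 30.2, 32.8, 36.0, 29.0 and 18.7 CPM. The factor libraries ran from 1.47 through 5.67 to 14.0 CPM, and the lowest 4 were the libraries of both 2-factor lines. Has2 fell by 2.70 ± 0.16, a 6.49-fold reduction (edgeR adjusted p = 1.78e-06), with -1.31 in the Nkx2.2 line and -4.20 in the Nkx6.1-P2A-Olig2 line. Of 11 tested genes of hyaluronan synthesis and turnover 2 fell, beside 2.10% of all tested genes. The other was Tmem2, which encodes a cell-surface hyaluronidase and fell by 0.39 ± 0.048 (edgeR adjusted p = 0.000688).

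The remaining common lower genes had varied known roles. Vegfc, a growth factor for lymphatic vessels, fell by 1.01 ± 0.14 (edgeR adjusted p = 0.00128), and Shisa3, which holds back maturation of Wnt and FGF receptors, by 1.62 ± 0.16 (edgeR adjusted p = 0.000146). Crabp1, the cytosolic binding protein for retinoic acid, had 259 to 272 CPM in the controls and 108 to 224 CPM in the factor libraries; it fell by 0.67 ± 0.11 (edgeR adjusted p = 0.00408). Of 19 retinoic acid pathway genes 4 fell, Crabp1 with Rarb, Aldh1a2 and Rdh10, and none rose, beside 2.10% lower and 0.923% higher of all tested genes. Rarb and Rdh10 each lost their call in 9 of the 34 alternative fits, and Aldh1a2 in 14. Further common lower genes were the transcription factors Osr1, Hand2, Foxd2, Pbx3, Nr2f2 and Prdm14, the synaptic cadherin relative Clstn2, the guidance ligand Sema3c, the BMP co-receptor Rgmb, the R-spondin receptor Lgr4 and the ceramide synthase Cers6. Fam181b, Hs3st4, Phlda1, Rims1, Rbm20, Slc37a3, Galnt7, Naf1, Fubp3, Mios and Fam3c completed the 37 together with 2 genes of the X chromosome and Tle1, described below. Their weakest was Fubp3, at -0.17 ± 0.041.

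The Groucho/Tle co-repressor genes changed in opposite directions. Proteins of this family are partners through which Nkx2.2 and Nkx6.1 repress, and the part of each listed gene in this was not tested. Of 6 listed genes 6 passed the test, beside 2.10% lower and 0.923% higher of all tested genes. Tle1 and Tle4 fell, and Tle2, Tle3, Tle6 and Aes rose. Tle1 had 72.6, 84.1, 73.5, 82.1 and 81.7 CPM in the controls and from 33.0 through 49.5 to 56.5 CPM in the factor libraries, with no overlap. It fell by 0.78 ± 0.046 (edgeR adjusted p = 1.78e-06). Tle2 went the other way, with 2.30, 2.67, 4.11, 3.27 and 3.61 CPM in the controls and from 4.74 through 10.3 to 14.5 CPM in the factor libraries. It rose by 1.61 ± 0.19, a 3.06-fold increase (edgeR adjusted p = 0.000463), and was the largest increase among the common genes. Tle6, a divergent member of the family, rose by 1.35 ± 0.16 (edgeR adjusted p = 0.000447), although the Olig2 line, at 6.01 and 7.74 CPM, lay within the range of the controls. Tle3 rose by 0.66 and the short family member Aes by 0.51, while Tle4 fell by 0.66 on the log2 scale. All 6 had the sign given here in each of the 34 alternative fits, scaling and removal of a GC trend included; Aes lost its call in 6 of them, Tle3 in 2 and Tle4 in 1.

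The common higher genes changed less and shared no role that the lists covered. Arsi, an arylsulfatase, rose by 1.36 ± 0.20 (edgeR adjusted p = 0.00184) from 1.11 ± 0.21 CPM (SD, n = 5) in the controls. Wnt4, a secreted signal, rose by 0.92 ± 0.15 (edgeR adjusted p = 0.00445), with values of 0.40 and 0.38 in the Nkx6.1 and Olig2 lines and above 1 in the others. Mpp2, a membrane scaffold protein, had 19.5, 19.5, 18.2, 19.3 and 19.7 CPM in the controls and from 24.5 through 29.6 to 38.3 CPM in the factor libraries, with no overlap, and rose by 0.70 ± 0.087 (edgeR adjusted p = 0.000692). Pdgfrb, a growth factor receptor, rose by 0.71 ± 0.10 (edgeR adjusted p = 0.00177). The potassium channel subunit Kcnab3, the nicotinic receptor subunit Chrna4, the sodium-calcium exchanger Slc8a2 and the glutamate receptor partner Cnih2 had log2 fold changes between 0.46 and 0.83. The rest were Map3k6, Ramp3, Fam131a, 8430427H17Rik, 6430548M08Rik, Sh3pxd2a, Eno3, Dusp18, Esyt1, Pnmal2, Cnnm4, Rundc1, Erbb2, Kctd11, Idnk, Zfp27, Ist1, Dnajc18 and Tob2, down to 0.18 ± 0.035 for Ist1 and 0.18 ± 0.045 for Tob2.

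Base composition and chromosome moved with the higher calls. The median GC content of the longest transcript was 55.3% for the common higher genes, 49.2% for the common lower genes and 50.0% for all tested genes. In 5 equal bins of GC content, from the lowest up, 1, 6, 21, 39 and 61 genes rose and 75, 74, 67, 39 and 39 fell. The common higher genes numbered 0, 2, 3, 13 and 10 in these bins, and the common lower genes 8, 9, 7, 3 and 10. When a smooth trend on GC content was removed from each library, a step chosen after these counts were seen, 27 of the 37 common lower and 15 of the 28 common higher genes met the rule again. Of the common higher genes, 8 lie on chromosome 11, where 22 of 1133 tested genes rose (1.94%) and 4 fell (0.353%). Another 3 lie on chromosome 18 (Arsi, Pdgfrb and Dnajc18), whose genes were raised in the Olig2 line. On chromosome 18, 13 of 368 tested genes rose (3.53%) and 12 fell (3.26%). Over all tested genes 0.923% rose and 2.10% fell. The part of library composition in these calls was not tested beyond the fit with the GC trend removed.

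**Figure D3:**
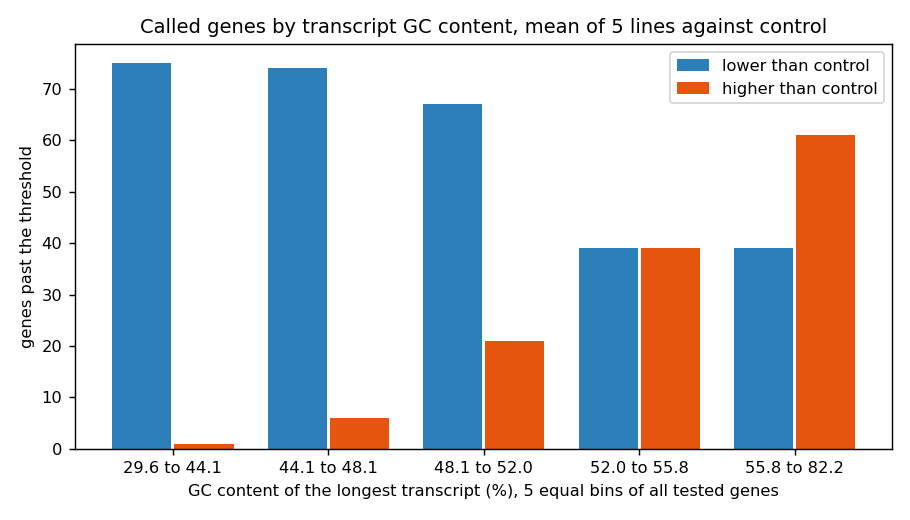
Number of genes past the edgeR threshold (y axis) by 5 equal bins of transcript GC content in percent (x axis), for the mean of 5 lines against the Cre control; blue bars are genes lower and orange bars genes higher. Higher genes increase from 1 to 61 over the bins, while lower genes decrease from 75 to 39.

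Hprt, which encodes a purine salvage enzyme, was lower in all factor lines. In inducible lines of the A2lox.cre type the exchange cassette sits just upstream of Hprt on the X chromosome; the labels do not give the position for mA2.lox.Cre. Hprt (chrX:52988137-53021659, plus strand, GRCm38) had 143, 136, 141, 139 and 123 CPM in the controls. Its factor libraries ran from 29.8 through 58.3 to 82.6 CPM, all below the controls, and it fell by 1.35 ± 0.14 (edgeR adjusted p = 0.000218). Line values lay between -1.67 and -0.86, and no difference among the lines passed the test (edgeR adjusted p = 0.340). Of 13 other tested genes that start within 1 Mb of Hprt, 13 had a mean below zero, 4 fell and 0 rose. Mospd1, Cxx1a, Cxx1b, Cxx1c and 1700013H16Rik each lay above the control in 1 or 2 lines, by up to 0.51. Their median was -0.62, beside -0.057 over 510 tested genes of the X chromosome, of which 20 fell and 1 rose. C430049B03Rik, which starts 67 kb away, was the second common gene of the X chromosome and fell by 1.41 ± 0.19 (edgeR adjusted p = 0.00100). Zfp36l3 fell by 1.20, Fam122b by 0.74 and Ccdc160 by 0.66. Phf6, the nearest tested gene on the other side, had -0.30 ± 0.098 (adjusted p = 0.138). Reads of the cassette were not measured here.

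**Figure D4:**
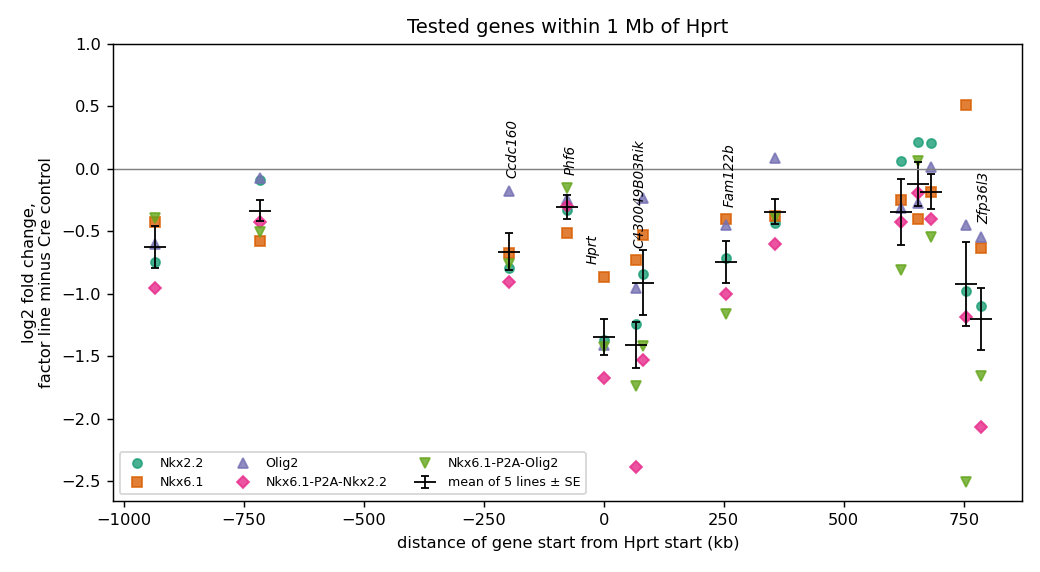
Log2 fold change of each factor line against the Cre control (y axis, 1 marker shape per line; black ticks, mean of 5 lines ± SE) for tested genes by distance of their start from that of Hprt in kb (x axis). Means of all 13 other genes lie below 0; the 5 genes past the threshold are labelled, with Phf6 for comparison.

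The label series allow the comparison to be made in 2 sets of libraries that have no library in common. In series 21 the mean of the 3 single-factor lines against controls 1 to 3 gave 42 lower genes (0.300%) and 11 higher genes (0.0787%). In series 23 the mean of the 2-factor lines against controls 4 and 5 gave 269 lower (1.92%) and 86 higher (0.615%). Genes lower in both numbered 31, which is 73.8% of the list from series 21 and 11.5% of that from series 23. Genes higher in both numbered 9, or 81.8% and 10.5% of the lists, and 0 genes passed in both with opposite signs. The controls of series 23 against those of series 21 gave 0 calls by edgeR, with 809 genes at an unadjusted p under 0.05.

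The common genes were chosen on the libraries of both series, so their direction within each series was fixed by that choice. Their counts here are therefore no independent check of them. Of the 37 common lower genes, 22 fell in both series, among them Pax6, Has2, Irx3, Irx5, Dbx2, Hhip, Gas1, Hprt and Tle1. Of the 28 common higher genes, 4 rose in both: Tle2, Arsi, Mpp2 and Eno3, the last a muscle-type enolase. A further 14 genes passed in both series without meeting the rule of separated libraries. They included Dbx1, Prdm13, Olig3 and Bhlhe22, Gli2, the growth factor gene Fgf15, the imprinted zinc finger gene Plagl1, and Tle4 on the lower side, and Tle6 and Gadd45g on the higher side. The size of the change differed between the series for 17 genes, of which 1 was common. This was Tle1, which fell by 0.53 with single factors and by 1.15 with 2-factor transgenes (edgeR adjusted p for the difference = 0.0308). At an unadjusted edgeR p under 0.05 the size differed for 1601 genes, and 22 of the 65 common genes were among them. Number of factors, number of lines and label series change together here and cannot be told apart.

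**Figure D5:**
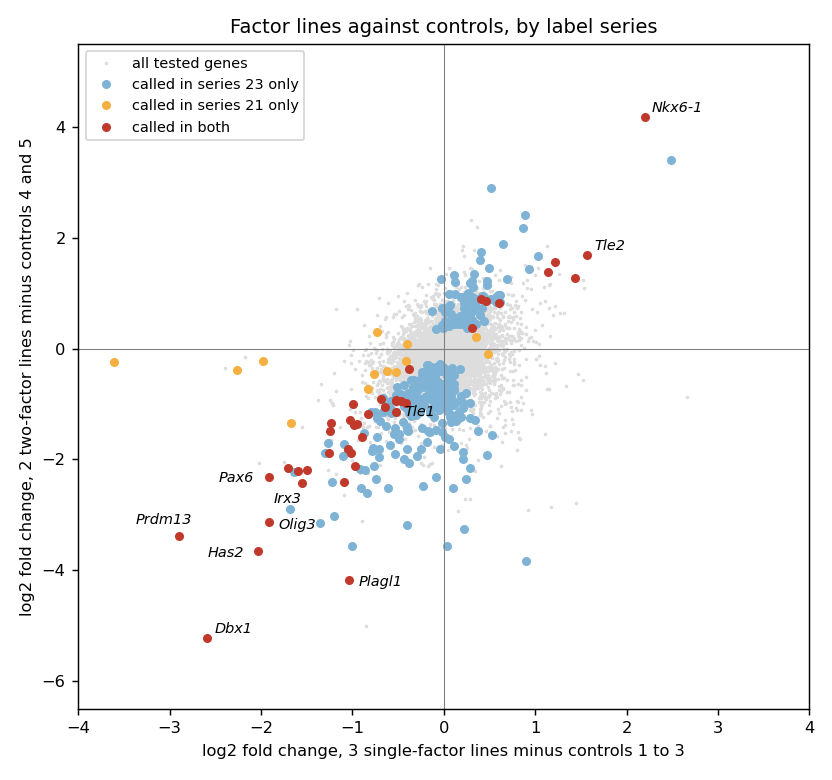
Log2 fold change of the single-factor lines against controls 1 to 3 (x axis) and of the 2-factor lines against controls 4 and 5 (y axis) for each tested gene; colours mark genes past the edgeR threshold in series 23, in series 21 or in both. The 40 genes past it in both lie in the lower left (31 genes) and the upper right (9 genes).

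Shared direction did not mean equal size. The test among the 5 factor lines called 673 genes (4.81%), and 167 of the 423 genes called in the mean contrast were among them. Its contrast leaves out the level of the controls, although the controls were part of the fit and of its estimate of spread. Of the common genes, 16 of the 37 lower and 2 of the 28 higher differed among lines. Pax6 was lowest with Nkx2.2 present, with line values of -2.99 and -3.44 against -1.13 to -1.43 elsewhere (edgeR adjusted p among lines = 0.000477). Has2, Clstn2 and Tle1 were lowest in both 2-factor lines. Their edgeR adjusted p among lines was 0.00177, 0.00459 and 0.00133. Hand2, a basic helix-loop-helix factor, ranged from -2.34 with Nkx6.1-P2A-Nkx2.2 to -0.59 with Nkx2.2 alone (edgeR adjusted p among lines = 0.00449). No difference among lines passed for 21 common lower genes, such as Irx5, Hhip, Hprt and Vegfc, or for 26 common higher genes, such as Tle2 and Mpp2; with 2 libraries a line, that does not show equal responses.

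Counts for lists of responses to Cre or to stress stand beside 2.10% lower and 0.923% higher of all tested genes. Cre recombinase is known to cause DNA breaks at high levels. Of 28 p53 and DNA damage genes, Gadd45a fell by 0.55, Ddit4 rose by 0.47, and 26 did not pass. Ddit4 lost its call in 17 of the 34 alternative fits. With limma 1 gene was lower and 1 higher, and with DESeq2 3 were lower and 2 higher. An unadjusted edgeR p under 0.05 was found for 12 of the 28. In that list 22 genes lay below zero, with a median of -0.13 beside -0.0051 over all tested genes. The p53 targets Cdkn1a, Mdm2 and Bbc3 had log2 fold changes of -0.10, -0.066 and -0.15. Of 13 tested type I interferon genes 0 passed with edgeR, limma or DESeq2 and 1 had an unadjusted p under 0.05, with a median of 0.028. Of 18 genes of the integrated stress and unfolded protein responses 0 passed with edgeR or limma, DESeq2 called 1 lower, and 2 had an unadjusted p under 0.05, with a median of 0.0017. Of 25 cell cycle genes, Ccnd2 fell by 0.64 and the cell cycle inhibitor Cdkn1c rose by 0.71, with the call lost in 11 and 2 of these fits.

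Lists for other cell states each held from 1 to 4 calls, to be read against the same shares of all tested genes. Of 16 pan-neural progenitor genes, Sox2 fell by 0.37 and Cdh2 by 0.62, and the summed level ran from 839 to 1235 CPM in the controls and from 662 to 1411 CPM in the factor libraries. Of 20 Notch pathway genes, Hes1 and Mfng rose. Stmn2 and Elavl2 fell among 15 early neuronal genes. Of 16 motor neuron, V2 and V3 factors, Gata3 fell and 15 did not pass. Plagl1, Mest and Peg10 fell and Cdkn1c rose among 30 imprinted genes. Vegfa rose among 16 hypoxia and glycolysis genes, and Ctgf fell among 15 immediate early genes. Of these calls, Stmn2 was lost in 22 of the 34 alternative fits, Hes1 in 17, Mfng in 16, Vegfa in 13, Cdh2 in 12 and Sox2 in 9, and the others in at most 3.

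Markers of other cell types were present, and some moved with the comparison. Their counts stand beside 2.10% lower and 0.923% higher of all tested genes, whose median log2 fold change was -0.0051. All 15 tested pluripotency markers lay below zero, with a median of -0.53, and 3 fell, Prdm14, Zfp42 and Sox2. The summed level of the 15 was 484 to 731 CPM in the controls and 317 to 609 CPM in the factor libraries. Of 17 extraembryonic and definitive endoderm markers, 16 lay below zero, with a median of -0.27, and 2 fell, Sox17 and Lama1. The summed level of the 17 was 11023 to 23339 CPM in the controls and 7145 to 21448 CPM in the factor libraries. The neural crest markers Tfap2a, Tfap2b, Twist1 and Pax3 fell and Sox9 rose among 8 tested, with summed levels of 58.9 to 83.1 CPM in the controls and 64.8 to 92.6 CPM in the factor libraries. The mesoderm markers Foxc1 and Hand2 fell among 9, with summed levels of 54.5 to 69.8 CPM in the controls and 33.2 to 63.8 CPM in the factor libraries. Sox10 and Foxd3 among crest markers, and T, Mixl1, Mesp1 and Tbx6 among mesoderm markers, were under the filter on low counts. Feeder fibroblast markers had 1 gene that rose, Pdgfrb, of 11 tested, with summed levels of 124 to 216 CPM in the controls and 146 to 277 CPM in the factor libraries. Oligodendrocyte and astrocyte markers had Mbp and Nfix higher and Slc1a3 lower of 9, with summed levels of 188 to 318 CPM against 154 to 331 CPM. Mbp was at -0.37 in the Nkx2.2 line, and Nfix at -0.24 in that line and -0.34 in the Olig2 line. The call was lost in 25 of the 34 alternative fits for Nfix, 21 for Mbp, 20 for Pax3, 17 for Zfp42 and 11 for Sox9. The summed levels of the groups overlapped for each of these marker lists. In bulk RNA, fewer cells of a type and less RNA per cell cannot be told apart, and the part of these cells in the common genes was not tested.

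Depth shapes any ratio of raw counts, because every control library was the deeper. The authors' deposited table of ratios covers 224 genes, and all 2240 of its values equal the count divided by the mean control count within 1e-08. On that raw scale 3523 of 13982 tested genes were below 1 in all 10 factor libraries and 12 were above 1, whereas on TMM-scaled CPM these numbers were 434 and 318. Factor totals were 0.653 to 0.944 of the mean control total. The ratio table's sheet is named for differential 2-fold ratios, and 115 of its genes were below 1 in all 10 factor libraries and 0 above. Of its genes, 132 were called lower here and 0 higher, and 24 of the 37 common lower genes are in it. Both rest on the same counts, so the shared direction is no independent result. The 13 common lower genes outside it, and all 28 common higher genes, are results of the count table.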

How the data were processed

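RNA libraries were built with a TruSeq kit from column-purified RNA, per the labels' protocols. STAR, DESeq2 and the mm10 build appear in the submitters' processing notes. The counter, its strand setting and the annotation are not given in the sources used here. Overlapping genes may therefore share reads. The deposited table has 23420 rows of raw counts, although its sheet is named for RPKM: 0 cells were non-integer. The 27 rows with a date in place of a symbol (0.228% to 0.253% of counts) stayed out of the tests. The authors' deposited ratio table divides each count by the mean control count, with no correction for depth.

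Counts were TMM-scaled, and genes that reached 1 CPM in 2 or more libraries were fitted in 1 edgeR 4.0.16 quasi-likelihood model of 6 groups (R 4.3.3); the contrast was the mean of 5 lines minus the control, so each line weighs the same. A model of 7 groups split the controls by label series. P-values were adjusted by Benjamini-Hochberg over 13982 genes, with a threshold of 0.05. Fold changes are on the log2 scale with standard errors, where 1 means 2-fold. Positions are from GENCODE M21 (GRCm38), to which 21714 symbols matched directly and 1274 through synonyms. Promoters are from RefSeq.

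Gene lists and the genes in them were chosen with earlier results of these data known. Genes were named by rule: the 3 factors, the 12 lower and 12 higher common genes with the largest change in their weakest line, up to 3 called members of each list, the 5 called genes that differ most among lines, and Hprt with its neighbours. Other common genes are named to account for the whole set, and other list members and genes passing in both series were chosen after their values were seen. Some results under this rule are not reported here. Alternatives included DESeq2 1.42.0 and limma 3.58.1.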

Additional observations from a re-analysis of the deposited data

Results flagged for a closer look

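Among the control libraries of 75 named genes, 4 (5.33%) had 1 library far from the other 4, and chance alone gives about 1 in 20. All were control 5. It was lowest for Vegfc, where the gap to the next library was 0.711 of the range, for Tle4 (0.761) and for Rlf (0.855), and highest for Rdh10 (0.741). Control 5 lay nearest to the factor libraries for Vegfc and Tle4.

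Effects differed among the 5 lines for 31 named genes by the edgeR test, given here as adjusted p. For the transgene factors it was 2.06e-09 for Nkx2-2, 0.000477 for Nkx6-1 and 0.000117 for Olig2. Among common lower genes it was 0.00177 for Has2, 0.0162 for Irx3, 0.000477 for Pax6, 0.0336 for Osr1, 0.00459 for Clstn2, 0.0233 for Gas1, 0.00133 for Tle1, 0.00430 for Tmem2 and 0.00449 for Hand2. Among signals and co-repressors it was 0.000422 for Bmp7, 0.00282 for Gli2, 0.00356 for Tle4, 0.0209 for Tle6 and 2.95e-05 for Dact1, a Wnt pathway regulator. Neurog2 had 0.000117 and Rdh10 0.0169. The imprinted genes Cdkn1c, Mest and Plagl1 had 0.0327, 0.000124 and 0.00288.

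Marker genes gave 0.000422 for Sox17, 0.000377 for Lama1, 0.00264 for Mbp and 0.00462 for Nfix, and the adhesion gene Cdh22 gave 0.0267. Y-linked Ddx3y, Uty and Eif2s3y gave 1.93e-05, 7.90e-05 and 8.30e-05, with the Olig2 line at or near 0. Rlf gave 6.79e-06: it was at -2.54 in the Nkx2.2 line and between 0.17 and 0.35 in the others.

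The change in series 23 differed from that in series 21 for 7 named genes, with adjusted p of 0.0308 for Tle1, 0.00182 for Plagl1, 0.0286 for Lama1, 0.00182 for Ddx3y, 0.0417 for Uty, 0.0419 for Eif2s3y and 0.0239 for Rlf. Plagl1 was at -1.04 in series 21 and -4.18 in series 23, and Lama1 at 0.057 and -0.89.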

How the results depend on the processing

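Counts of calls depended on the fit more than the identity of the leading genes. Of the 37 common lower genes 18, and of the 28 common higher genes 4 (Tle2, Arsi, Mpp2 and Eno3), were called in each of 34 alternatives that tested them, and 32 and 13 were called in all 15 fits that left out 1 library.

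In those 15 fits lower genes numbered 152 to 411, higher genes 40 to 185, common lower genes 32 to 127 and common higher genes 14 to 65. The lowest counts came without control 4 (152 lower, 40 higher, 14 common higher) and control 2 (174, 45 and 14). Without control 5 the common genes were 127 lower and 65 higher, and without Olig2 library 1 the common lower genes were 63. Higher genes were 65 without control 3, and from 70 to 81 without each of 6 factor libraries; common higher genes were 17 without Nkx6.1-P2A-Olig2 library 2.

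With 10 libraries against 5 as 2 groups, which puts line differences into the spread, 31 genes were lower, 16 higher, 22 common lower and 9 common higher. Single-factor lines alone gave 53 lower, 13 higher and 7 common higher. The 2-factor lines alone gave 502 lower, 306 higher, 411 common lower and 277 common higher. In each of these fits the rule of separated libraries covered only the factor lines kept. Common genes were 66 and 48 without the Nkx2.2 line and 95 and 62 without the Olig2 line, where 195 were higher. Without the Nkx6.1-P2A-Nkx2.2 line 122 were lower, 44 higher and 16 common higher, and without the Nkx6.1-P2A-Olig2 line 61 were higher. DESeq2 gave 451 lower and 227 higher. A bound of 0.5 on the log2 scale in every line, in place of the rule of separated libraries, gave 11 common higher genes, and removal of the GC trend 18. Without chromosomes 18 and Y, 403 genes differed among lines and 6 were higher in series 21; the cause of these shifts was not tested.

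The main fit paired no libraries, and whether replicate or label numbers mark pairs was not settled. Deviations of libraries with the same replicate number correlated from -0.080 to 0.51 over 10 pairs, 5 of them over 0.1. The replicate block gave 115 lower, 34 higher and 5 common higher genes. Deviations of libraries with the same label number correlated from -0.49 to 0.60 over 7 pairs, 3 of them over 0.1. As a block, label numbers gave 853 lower and 552 higher.

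Signs turned for Neurog2, Lama1, Rlf and 3 Y-linked genes. As 2 groups, Neurog2 was at 0.18, Ddx3y 0.041, Uty 0.086 and Eif2s3y 0.18. With single-factor lines Lama1 was at 0.036. With 2-factor lines Ddx3y was at 0.12, Uty 0.20, Eif2s3y 0.099 and Rlf 0.18. Without the Olig2 line Ddx3y was at 0.26, Uty 0.29 and Eif2s3y 0.35, and without the Nkx2.2 line Rlf was at 0.24. Over all named genes, 2194 alternative values kept direction and call, 378 lost the call, 15 gained it and 13 turned sign. Depth limits genes near 1 CPM, such as Arsi and Prdm14.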
